A study of Mus musculus with 13 samples.

Results

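The genes described here are 10 that write, maintain or remove DNA methylation. They are the methyltransferase Dnmt1 with the maintenance factors Uhrf1 and Hells, the methyltransferases Dnmt3a and Dnmt3b with their cofactor Dnmt3l, the dioxygenases Tet1, Tet2 and Tet3, and the glycosylase Tdg. They were taken by name, with earlier results of these data known, as 10 of the 20972 gene symbols on the array. All their probes were used, 19 of 55681. A probe was tested if the scanner called it well above background on all arrays of 1 group or more, which held for 18. The other, a probe of Tet3, was well above background on 0 of 13 arrays, and all 10 genes kept at least 1 probe.

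In mammals most DNA methylation lies on cytosines of CpG dinucleotides and is copied at replication by Dnmt1, which Uhrf1 recruits to newly made DNA. Dnmt3a and Dnmt3b place methyl groups on unmethylated DNA, and Tet enzymes oxidise them, after which the mark is lost through replication or through excision by Tdg and base repair. Mouse embryonic stem cells (ESCs) cultured with LIF while MEK and GSK3 are inhibited are known for a low level of methylation, and the enzymes of the pathway are regulated as such cells leave that state.

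The study asked what is lost when Jmjd2 (Kdm4) histone demethylases, which remove methyl groups from lysines 9 and 36 of histone H3, are deleted in ESCs. All lines came from C57Bl/6 mice and carried CreERT2, a Cre recombinase that is active only with tamoxifen or its metabolite OHT, at the Rosa26 locus. Lines cl4, cl5 and cl6 had both alleles of Jmjd2a and Jmjd2c floxed (genotype 2ac), and in genotype 2abc, with lines cl280.4 and cl324.9 as well as cl324.13, Jmjd2b was floxed in addition. Each line gave a control sample grown without OHT and an OHT sample exposed to 500 nM for 12 days and then cultured for 6 more days, on gelatin in serum-free N2B27 with LIF, PD0325901 and a GSK3 inhibitor. There were thus 4 groups of 3 samples, 12 samples on 13 arrays, since the OHT sample of cl4 was hybridised on 2 arrays that were averaged. No samples of OHT-treated cells without floxed alleles were analysed here, so the effects of deletion and those of OHT and active Cre cannot be told apart.

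Each array gave values for 55672 to 55681 probes after spots of a probe were averaged, with 50.1 to 63.9% of them well above background and 0 saturated. The probe of Kdm4c fell by 2.26 to 3.66 in the 6 lines on the log2 scale and left 13.4% of the control signal in 2ac and 10.8% in 2abc. Kdm4b fell by 1.68 to 2.59 in the 3 lines of 2abc, against changes of -0.04 to 0.35 in 2ac, and Kdm4a fell by 0.53 to 0.89 in all 6. Each line thus showed lower signals of its targeted genes in its OHT sample, though whether the probes lie in the deleted exons is not known here. All 10 markers of ESCs were well above background on every array. The 13 arrays lay on 3 slides, and 1 slide held line cl6 and all 2abc lines, so levels of the untreated genotypes are largely tied to slide.

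Levels are given as log2 of the background-subtracted signal relative to the 75th percentile of the same array, for the brightest probe of a gene. They compare samples for 1 probe, not 1 gene with another. Changes are OHT minus control within lines, tested with limma with the line as a block. A change was called at an adjusted p under 0.05 over 22967 features, referred to as genes here. Of these, 14661 had a gene symbol, and the rest were known only by the array's identifiers. In 2ac, 3 of the 10 genes were called, 1 higher and 2 lower, where 12.3% of all genes were, 5.75% higher and 6.5% lower. In 2abc, 5 were called, 1 higher and 4 lower, against 17.6% of all genes, 8.59% higher and 9.03% lower. Over the 6 lines, 4 were called, 1 higher and 3 lower, against 28.7% of all genes, 14% higher and 14.7% lower. Without cl324.9 or cl324.13 the count in 2abc was 0, and without cl4 or cl5 the count in 2ac was 0. The calls over all genes fell in the same fits, from 4045 to 247 and 211 in 2abc. In 2ac they fell from 2814 to 343 and 167. The median change of the 10 genes was -0.03, -0.15 and -0.07 in these comparisons, beside 0.02, -0.02 and 0.00 for all genes. These were bulk cultures, in which fewer cells of a kind and less RNA per cell cannot be told apart.

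**Figure D1:**
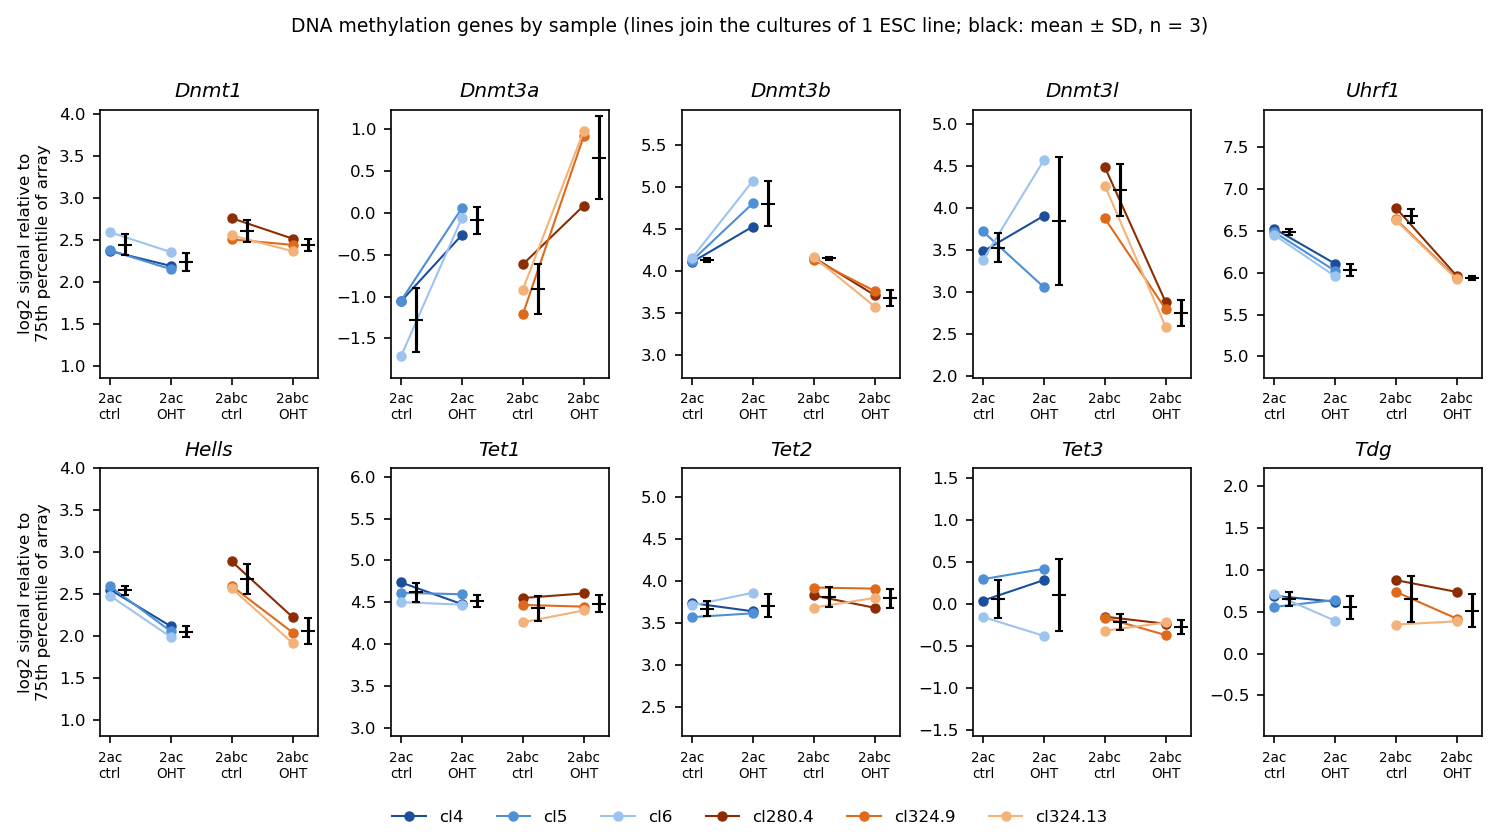
Level of each of the 10 genes in every sample, as log2 signal relative to the array's 75th percentile. Coloured lines join the control and OHT culture of 1 ESC line, blue for 2ac and orange for 2abc, black bars give the mean and SD of 3 samples, and every panel spans the same number of log2 units. Uhrf1 and Hells are lower after OHT in all 6 lines, Dnmt3a is higher in all 6, and Dnmt3b is higher in 2ac and lower in 2abc.

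Of the maintenance factors, Uhrf1 and Hells fell in both genotypes, and Dnmt1 fell by less. Uhrf1 reads hemimethylated CpGs at the replication fork. Its level in controls of 2ac was 6.53, 6.49 and 6.45 in cl4, cl5 and cl6, and after OHT it was 6.11, 6.02 and 5.96. In 2abc the controls cl280.4, cl324.9 and cl324.13 stood at 6.77, 6.64 and 6.63 and the OHT samples at 5.96, 5.93 and 5.92. Every OHT sample of either genotype lay below every control sample. The change was -0.46 (SE 0.07) in 2ac, with a limma adjusted p of 0.0180, and left 72.8% of the control level. In 2abc it was -0.74 (SE 0.07), adjusted p of 0.00590 in limma, and left 59.8%. The second Uhrf1 probe gave -0.49 and -0.78 when all probes were fitted, with limma adjusted p of 0.0292 and 0.00890.

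Hells, also called Lsh, is a chromatin remodeller of the SNF2 family needed for methylation of repeats. In 2ac its level went from 2.55, 2.59 and 2.48 in controls to 2.12, 2.06 and 1.99 after OHT. In 2abc it went from 2.89, 2.60 and 2.57 to 2.22, 2.04 and 1.91. The OHT samples were again the low ones in each genotype, with no overlap. The changes of -0.49 (SE 0.07) in 2ac and -0.63 (SE 0.07) in 2abc had limma adjusted p of 0.0160 and 0.00853. They left 71.2% and 64.8% of the control levels. Over the 6 lines, Uhrf1 changed by -0.60 (SE 0.05, limma adjusted p = 0.00161) and Hells by -0.56 (SE 0.05, limma adjusted p = 0.00202), each lower in 6 of 6 lines.

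Dnmt1 copies methylation onto the daughter strand. Its controls in 2ac were at 2.37, 2.38 and 2.59 and its OHT samples at 2.19, 2.15 and 2.36. In 2abc the controls were at 2.76, 2.51 and 2.56 and the OHT samples at 2.52, 2.44 and 2.37. The groups did not overlap in 2ac and did in 2abc. The changes of -0.21 (SE 0.08) and -0.17 (SE 0.08) did not pass in either genotype, with limma adjusted p of 0.125 and 0.183. Over the 6 lines the change was -0.19 (SE 0.05, limma adjusted p = 0.0443), lower in 6 of 6 lines, and it left 87.7% of the control level.

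The 2ac calls of Uhrf1 and Hells were lost when arrays were scaled by their median, when dim probes were kept and when 2ac was fitted alone (limma adjusted p of 0.0538 to 0.0650). Without cl4 or cl5 the 2ac changes of Uhrf1 were -0.48 and -0.46 (limma adjusted p of 0.0896 and 0.108) and those of Hells -0.52 and -0.47 (0.0806 and 0.103). Without cl324.9 or cl324.13 the 2abc changes were -0.76 for Uhrf1 both times (0.0538 and 0.0572) and -0.66 and -0.61 for Hells (0.0626 and 0.0756), and the Dnmt1 call was lost without any 1 of the 6 lines (limma adjusted p of 0.0721 to 0.146). Control and OHT arrays of a line shared a slide, except 1 of the 2 OHT arrays of cl4. On the slide of cl6 and 2abc alone the changes of Uhrf1, Hells and Dnmt1 averaged over the genotypes were -0.62, -0.56 and -0.20 (limma adjusted p of 0.0533, 0.0586 and 0.231).

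The promoters of these 3 genes are shown because each of the genes fell over the 6 lines and each holds a match to an E2F-type motif within 250 bases before a start site. E2F factors drive genes of the S phase of the cell cycle. The motifs searched were TTTCCCGC, TTTGGCGC, TTTCGCGC and TTTGCCGC on both strands, none of which overlapped another in these windows. The windows are from RefSeq on GRCm38.p6, printed 5′ to 3′ on the gene's strand with the match in capitals. The last sequence, of Dnmt3b, holds no match and is shown because that gene changed in opposite directions in the 2 genotypes. All 4 are rich in CpG, with 30, 28, 26 and 21 CpGs in the order printed, where the median of all promoters was 6.
Uhrf1, the second of 2 starts, chr17:56304063-56304312, plus strand, match 185 bases before the start: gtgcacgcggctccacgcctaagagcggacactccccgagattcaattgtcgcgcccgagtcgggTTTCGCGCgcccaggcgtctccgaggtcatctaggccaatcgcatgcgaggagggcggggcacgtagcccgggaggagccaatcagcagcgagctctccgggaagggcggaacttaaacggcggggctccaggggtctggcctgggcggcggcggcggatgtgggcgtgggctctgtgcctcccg
Hells, chr19:38930740-38930989, plus strand, match 62 bases before the start: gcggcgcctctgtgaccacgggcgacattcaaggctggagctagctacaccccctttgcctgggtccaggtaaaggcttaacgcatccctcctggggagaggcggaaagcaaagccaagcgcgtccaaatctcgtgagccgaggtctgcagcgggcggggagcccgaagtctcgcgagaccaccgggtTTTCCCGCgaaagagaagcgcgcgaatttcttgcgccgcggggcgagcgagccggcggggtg
Dnmt1, the third of 3 starts, chr9:20952624-20952873, minus strand, match 219 bases before the start: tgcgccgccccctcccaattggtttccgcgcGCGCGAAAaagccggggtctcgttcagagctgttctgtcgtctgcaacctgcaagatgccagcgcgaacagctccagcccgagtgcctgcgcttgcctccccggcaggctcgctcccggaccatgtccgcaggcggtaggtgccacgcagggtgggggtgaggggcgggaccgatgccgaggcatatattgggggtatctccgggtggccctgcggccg
Dnmt3b, chr2:153649199-153649448, plus strand, no match: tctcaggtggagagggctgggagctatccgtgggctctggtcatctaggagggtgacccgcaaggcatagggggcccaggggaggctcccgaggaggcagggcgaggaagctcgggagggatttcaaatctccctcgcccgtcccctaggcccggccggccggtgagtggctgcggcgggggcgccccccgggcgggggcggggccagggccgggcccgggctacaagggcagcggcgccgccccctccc
A match was present in 611 of 32851 promoters of this length (1.86%), in 3 of the 17 promoters of the 10 genes (17.65%), and in 6 of 21 promoters of the S-phase genes described further on (28.57%). Each of the motifs holds a CpG. The median CpG count was 6 for all promoters, 17 for those of the 10 genes and 18 for those of the S-phase genes. The shares were not matched for CpG count. A match is a run of letters and was not tested as a binding site. Promoter windows of Dnmt3a, Dnmt3l, Tet1, Tet2, Tet3 and Tdg held no such run.

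The 3 genes of de novo methylation moved in different ways. Dnmt3a rose, Dnmt3b went up in 2ac and down in 2abc, and Dnmt3l was lower in 2abc while the lines of 2ac disagreed. Dnmt3a controls of 2ac stood at -1.06, -1.05 and -1.72 and the OHT samples at -0.27, 0.06 and -0.06. In 2abc they went from -0.62, -1.21 and -0.92 to 0.09, 0.92 and 0.98. All OHT samples lay above all controls, and the smallest gain in 2abc was that of cl280.4. The change in 2abc was 1.58 (SE 0.30, limma adjusted p = 0.0231), a level of 298% of control. In 2ac it was 1.18 (SE 0.30), or 227% of control, and did not pass with a limma adjusted p of 0.0576. Over the 6 lines the change was 1.38 (SE 0.21, limma adjusted p = 0.00728), higher in 6 of 6 lines, and on the slide of cl6 and 2abc alone it was 1.61 (limma adjusted p = 0.0873). The array has a single probe for Dnmt3a, and which of its transcripts that probe reads was not tested. The 2ac change passed with 2ac fitted alone (adjusted p = 0.0492 in limma), without the line as a block (0.0181) and without the 2abc line cl280.4 (0.0191), and the 2abc change lost its call without cl5 (1.58, 0.0506), cl324.9 (1.30, 0.123) or cl324.13 (1.42, 0.138), with dim probes kept (0.0584) and with 2abc fitted alone (0.0763).

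Dnmt3b is the main de novo enzyme of ESCs. Its control levels were close to each other in all 6 lines, 4.10, 4.12 and 4.15 in 2ac and 4.16, 4.13 and 4.16 in 2abc. After OHT the 2ac lines stood at 4.53, 4.81 and 5.08 and the 2abc lines at 3.71, 3.76 and 3.57. The 2 sets of OHT samples thus lay on opposite sides of the controls, with no overlap. In 2ac Dnmt3b rose by 0.68 (SE 0.11, limma adjusted p = 0.0204) to 160% of control. In 2abc the change was -0.47 (SE 0.11, limma adjusted p = 0.0408), which left 72.2%. Across all 6 lines the opposite changes gave 0.10 (limma adjusted p = 0.386).

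The other 2 Dnmt3b probes moved like the brightest one. Their changes were 0.68 and 0.70 in 2ac (limma adjusted p of 0.0187 and 0.0145 over all probes) and -0.55 and -0.63 in 2abc (0.0230 and 0.0143). The 2 arrays of the OHT sample of cl4 differed by -0.43 for the brightest probe and by 0.07 and 0.05 for the other 2, beside a median absolute difference of 0.113 over all probes. Without cl4, cl5 or cl6 the 2ac change of the brightest probe was 0.80, 0.68 and 0.56 and lost its call (limma adjusted p of 0.0562, 0.116 and 0.0521). The 2abc call was lost without any of 5 lines, all but cl6, with changes of -0.52 to -0.41 (limma adjusted p of 0.05003 to 0.215). Both calls were lost under median scaling, with dim probes kept and with 1 genotype fitted alone (limma adjusted p of 0.0545 to 0.121).

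Dnmt3l has no catalytic activity and stimulates Dnmt3a and Dnmt3b. In 2abc its controls were at 4.49, 3.88 and 4.27 and its OHT samples at 2.87, 2.79 and 2.58. The change was -1.46 (SE 0.34, limma adjusted p = 0.0363), which left 36.2% of the control level with no overlap of the groups. In 2ac the level went from 3.48, 3.72 and 3.38 to 3.91, 3.06 and 4.57. Lines cl4 and cl6 were thus higher and cl5 lower after OHT, the groups overlapped, and the change of 0.32 (SE 0.34) had a limma adjusted p of 0.603. The 2abc call was lost without cl4, cl280.4, cl324.9 or cl324.13, with changes of -1.65 to -1.35 (limma adjusted p of 0.0701 to 0.185), and also under median scaling (0.0501) and with dim probes kept (0.0848).

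**Figure D2:**
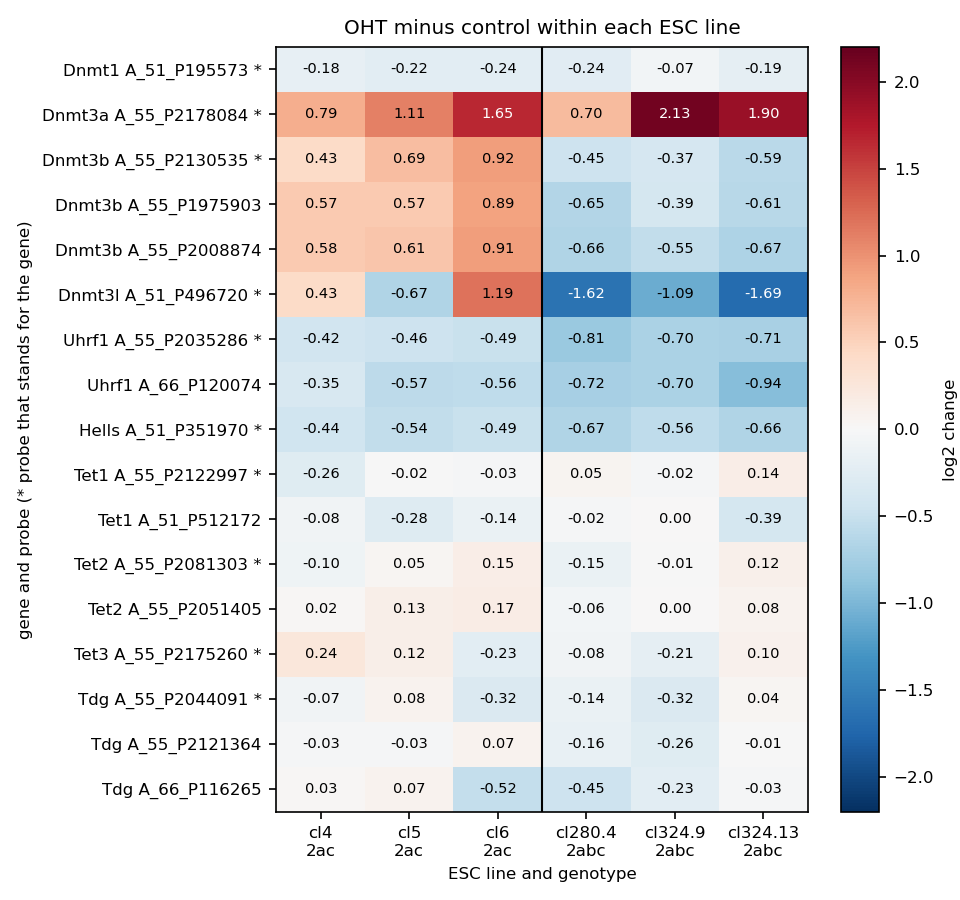
Log2 change, OHT minus control, of every probe of the 10 genes that was well above background on all 13 arrays, in each of the 6 ESC lines. Rows are probes, columns are lines, the black line parts 2ac from 2abc, and an asterisk marks the probe that stands for the gene. The 3 Dnmt3b probes are above 0 in the 3 lines of 2ac and below 0 in the 3 lines of 2abc.

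No change of the Tet genes or of Tdg was called. Tet1 and Tet2, the Tet genes that ESCs use, had levels of 4.26 to 4.74 and of 3.57 to 3.92 over the 12 samples. Tet3, better known from the zygote and from neurons, ranged from -0.38 to 0.42, and Tdg, which excises oxidised methylcytosine, from 0.35 to 0.88. Control and OHT samples overlapped for each of the 4 genes in both genotypes. The changes in 2ac and 2abc were -0.10 and 0.06 for Tet1, 0.03 and -0.01 for Tet2, 0.05 and -0.06 for Tet3 and -0.10 and -0.14 for Tdg. Their 95% intervals over the 6 lines were -0.17 to 0.13 for Tet1, -0.15 to 0.17 for Tet2, -0.21 to 0.20 for Tet3 and -0.32 to 0.07 for Tdg. The second probe of Tet1 gave -0.17 and -0.14, that of Tet2 0.11 and 0.01, and that of Tet3 0.16 and 0.26, none of them called by limma. That Tet3 probe was far dimmer than the brightest one, with levels of -4.55 to -2.37, and was well above background on 11 of 13 arrays. The other Tdg probes lay between -0.24 and 0.00. Tet2 lies on chromosome 3, where the median change over the 6 lines was 0.24 for 665 genes, with line medians of 0.10 to 0.41. The medians of the other chromosomes with these genes were between -0.03 and 0.01.

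Control and OHT samples of 2ac did not overlap for 5 of the 10 genes, Dnmt1, Dnmt3a, Dnmt3b, Uhrf1 and Hells, where 30.7% of all genes were separated in this way. In 2abc they did not overlap for Dnmt3a, Dnmt3b, Dnmt3l, Uhrf1 and Hells, again 5 of 10, where 40.7% of all genes were separated.

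The 2 genotypes were then compared with each other through the 2abc change minus the 2ac change. No gene on the array passed this test, 0 of 22967 or 0% in limma at the adjusted threshold, while 2526 had an unadjusted p under 0.05. Kdm4b itself, deleted in 2abc alone, had a difference of -2.34 with a limma adjusted p of 0.303, so the test did not pass for a gene that differs by design. Dnmt3b differed by -1.15 (SE 0.16, limma adjusted p = 0.303) and ranked at 23 of 22967 genes by p. Dnmt3l differed by -1.78 (SE 0.48, limma adjusted p = 0.358), Uhrf1 by -0.28 (SE 0.10, 0.423) and Hells by -0.14 (SE 0.10, 0.669). Dnmt3a differed by 0.39 (SE 0.43, limma adjusted p = 0.776), with a 95% interval of -0.66 to 1.44.

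Dnmt3b changed upward in every line of 1 genotype and downward in every line of the other. This pattern of signs was shown by 791 of 22955 genes (3.45%). Among the 10 genes Dnmt3b alone had it. The genotypes also differ in slide and in line, and the part of these in the difference was not tested. Line cl6, which shares the slide of 2abc, had a Dnmt3b change of 0.92, but it is 1 line only.

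**Figure D3:**
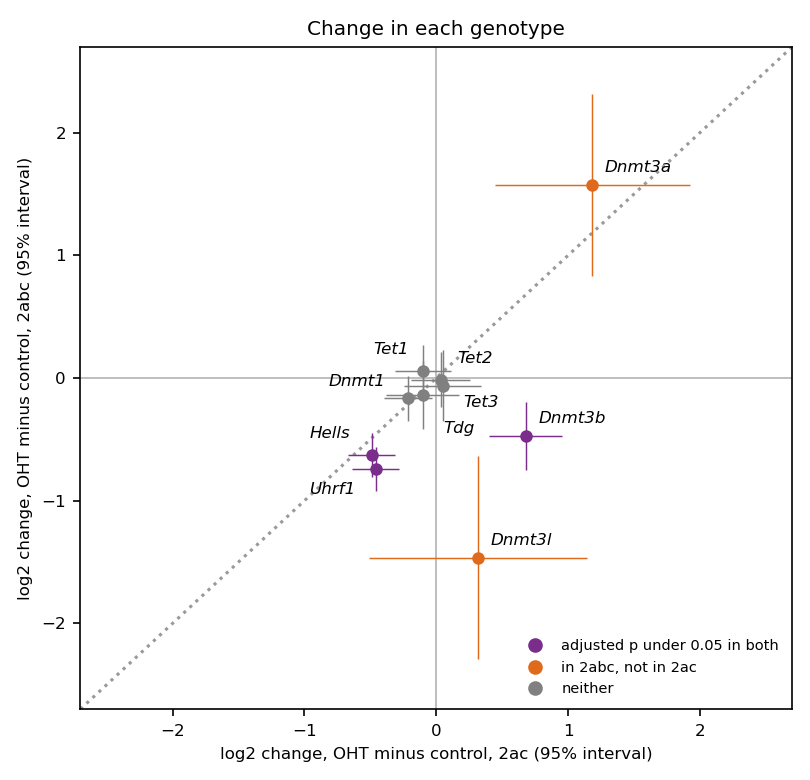
Log2 change of each gene in 2ac (horizontal) against its change in 2abc (vertical), with 95% intervals from limma as bars and equal changes on the dotted line. Uhrf1 and Hells lie in the quadrant that is lower in both, Dnmt3a is above 0 in both, and Dnmt3b and Dnmt3l lie to the right of 0 and below it.

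Without OHT none of the 10 genes was called between the genotypes, where 2 of 22967 genes (0.00871%) were, 1 in each direction (0.00435% higher and 0.00435% lower), and 3544 had an unadjusted p under 0.05 in limma. The largest difference of these 10 was that of Dnmt3l, 0.68 higher in 2abc (SE 0.34, limma adjusted p = 0.358). Uhrf1 was 0.19 higher (SE 0.08, limma adjusted p = 0.292) and Dnmt3b 0.03 higher (SE 0.13, limma adjusted p = 0.940).

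Uhrf1 lies next to Kdm4b on chromosome 17, and Kdm4b is deleted in 2abc alone. Uhrf1 was lower in both genotypes. The gene on its other side, Arrdc5, which encodes an arrestin domain protein, fell by 1.58 in 2ac (SE 0.26, limma adjusted p = 0.0202) and had a change of 0.27 in 2abc (limma adjusted p = 0.530). Its 2ac call was lost without cl4, cl5 or cl6 (limma adjusted p of 0.0583 to 0.101). On the far side of Kdm4b, the receptor phosphatase gene Ptprs had -0.43 in 2ac (limma adjusted p = 0.114) and rose by 0.59 in 2abc (limma adjusted p = 0.0424), a call lost without any 1 line but cl280.4 (0.0586 to 0.218). Fem1a, Ticam1, Plin3, Safb2 and Safb had changes between -0.52 and 0.15 in the 2 genotypes, none of them called. Whether deletion of Kdm4b acts on Uhrf1 in cis was not tested.

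**Figure D4:**
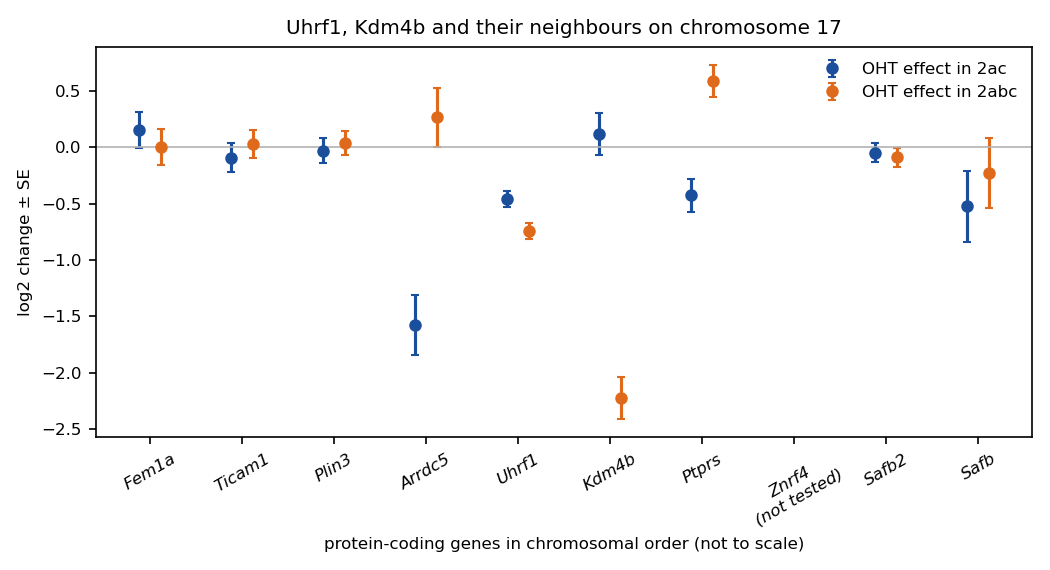
Log2 change with SE of Uhrf1, Kdm4b and the protein-coding genes around them on chromosome 17 in their order along the chromosome, which is not drawn to scale, in 2ac (blue) and 2abc (orange). Uhrf1 is below 0 in both genotypes and Kdm4b only in 2abc, and the neighbours Fem1a, Ticam1, Plin3 and Safb2 lie within 0.2 of 0.

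Other genes of the pathway were described by list, beside the 28.7% of all genes called over the 6 lines. Of the genes of these 5 lists named below with a call over the 6 lines, Gadd45a, Mbd1 and Orc1 were also called when only the 4 lines of 1 slide, cl6 and those of 2abc, were fitted. Of 25 tested regulators and cofactors, 2 were higher and 8 lower over the 6 lines, with a median change of -0.23. Zscan4c, of a gene family known from the 2-cell embryo whose members share sequence, had -1.82 (limma adjusted p = 0.00390), and its probes cannot be assigned to 1 copy. Usp7, a deubiquitinase that stabilises Dnmt1 and Uhrf1, fell by 0.47 (limma adjusted p = 0.00485), while its other probe gave -0.19 and was not called. Ogt, the glycosyltransferase that binds Tet proteins, fell by 0.41 (limma adjusted p = 0.00531), while its other probe gave -0.18 and was not called. The line changes of Ogt were -0.28 to -0.05 in 2ac and -0.73 to -0.64 in 2abc. Morc1, which represses transposons in germ cells, fell by 0.72 (limma adjusted p = 0.0102). Its change was -1.09 in 2abc (limma adjusted p = 0.0155). In 2ac it was not called, with -0.52 in cl4, -0.63 in cl5 and 0.10 in cl6. Mat2a, which makes the methyl donor, fell by 0.62 in 2abc (limma adjusted p = 0.0190), a call lost without cl324.9 or cl324.13 (0.116 and 0.119). Of the 10 calls over the 6 lines, 5 were made without cl5 or cl324.9 and 4 without cl324.13.

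Of 18 tested genes of base excision repair and deamination, 5 were higher and 4 lower, with a median of 0.01. The stress-induced Gadd45a rose by 1.52 (SE 0.09, limma adjusted p = 0.000710), with line changes of 1.31 to 1.86, and Gadd45g rose by 1.98 (SE 0.25, limma adjusted p = 0.00415). The endonuclease gene Apex1 fell by 0.45 (limma adjusted p = 0.00496) and the deaminase gene Apobec3 by 0.44 (limma adjusted p = 0.00565). In 2abc the deaminase gene Apobec1 rose by 0.80 (limma adjusted p = 0.0131), which was lost without cl324.9 or cl324.13 (0.0730 and 0.0870). The count of 9 over the 6 lines was 5 without cl4 or cl324.9.

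Of the 10 genes for proteins that bind methylated DNA, 5 were higher and 2 lower, with a median of 0.23. Mbd1 had the largest change of them, -2.29 (SE 0.14, limma adjusted p = 0.000747), between -2.85 and -1.91 in the 6 lines, and its second probe gave -2.31. Zbtb33, which encodes Kaiso, rose by 0.72 (limma adjusted p = 0.0134). The brightest probe of Mbd2 rose by 0.52 (limma adjusted p = 0.00385), while its other probe gave 0.17 and was not called. Without cl324.9 or cl324.13 Zbtb33 lost its call (limma adjusted p of 0.0510 and 0.0523), and 3 of the 10 readers were called in place of 7.

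Genes that methylation silences outside the germline were called in both directions. Of 18 tested, 2 were higher and 7 lower over the 6 lines, where 14% of all genes were higher and 14.7% lower. Their median change was -0.33, and Tdrd1 was not well above background on any array. The synaptonemal gene Sycp3 fell by 0.75 (limma adjusted p = 0.00118) and the RNA helicase gene Ddx4 by 0.55 (limma adjusted p = 0.00488). The homeobox genes Rhox6 and Rhox9 of the X chromosome rose by 2.03 (limma adjusted p = 0.00349) and 1.57 (limma adjusted p = 0.00459). In 2abc Mael and Rpl10l fell by 1.59 and 2.22 (limma adjusted p of 0.0184 and 0.0218), calls that were lost without cl324.9 or cl324.13 (0.110 to 0.126). Methylation itself was not measured in these samples.

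**Figure D5:**
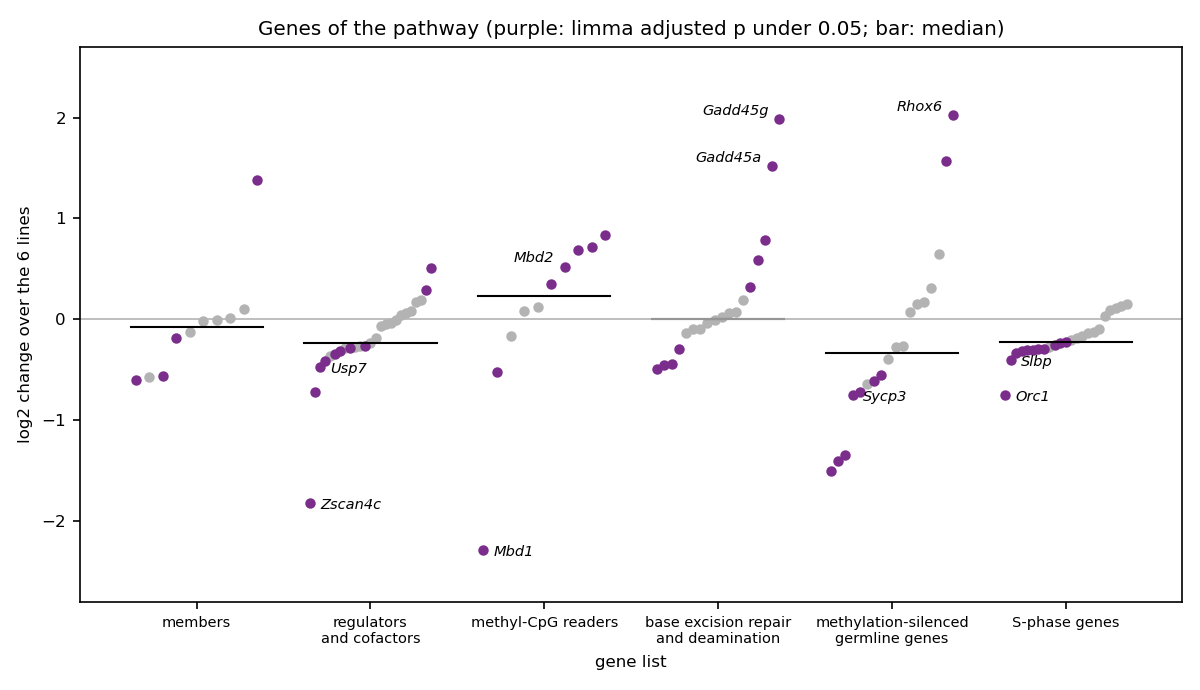
Log2 change over the 6 lines of the 10 genes and of 5 lists of related genes. Each point is a gene, sorted within its list, purple where limma's adjusted p was under 0.05 and grey otherwise, the black bar is the list's median, and the named genes are those with the smallest p of each list of related genes. The S-phase genes that were called all lie below 0, and the lists of readers and germline genes hold genes called in both directions.

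Uhrf1, Hells and Dnmt1 are themselves genes of dividing cells. Of 23 tested S-phase genes 0 were higher and 11 lower over the 6 lines, with a median of -0.23. In 2abc 10 were lower, where 9.03% of all genes were, with a median of -0.29. In 2ac 1 was lower, where 6.5% of all genes were, with a median of -0.12. The 2ac count was 0 without cl4 or cl5. The origin recognition gene Orc1 fell by 0.75 (SE 0.06, limma adjusted p = 0.00122) with changes of -0.58 in 2ac and -0.93 in 2abc. Slbp, Gins2 and Mcm5 fell by 0.40, 0.33 and 0.30 (limma adjusted p of 0.00846, 0.0104 and 0.0110), and Mcm5 lost its call without cl324.13 (0.0522). Mcm5 changed by -0.13 to -0.07 in the lines of 2ac and by -0.59 to -0.42 in those of 2abc. The 11 calls over the 6 lines came to 5 without cl4, cl5 or cl324.9 and to 3 without cl324.13, and the 10 calls in 2abc to 4, 3, 1 and 1 without these lines in turn. The summed signal of the list, in multiples of the 75th percentile, was 1040 to 1121 in controls and 979 to 1035 after OHT in 2ac, and 1034 to 1124 and 867 to 972 in 2abc. The part of the cell cycle in the changes of Uhrf1, Hells and Dnmt1 was not tested.

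Markers of cell state also moved. Their counts over the 6 lines, and those of the endoderm and fibroblast markers below, stand beside 14% of all genes called higher and 14.7% lower. Some markers passed the background filter only in groups where they are high, so their direction in these counts is tied to the filter. Wnt8a, well above background on 0 of 3 control arrays in each genotype, was tested only through the OHT groups. Of 13 tested markers of the formative epiblast, which follows the naive state, 9 were higher and 1 lower, with a median change of 0.66, and their summed signal was 91.9 to 104 in controls and 153 to 198 after OHT in 2ac. In 2abc it was 82.4 to 95.4 in controls and 131 to 141 after OHT, and most of each sum was the signal of the bright Etv5 probe. Wnt8a was at least 12.3-fold higher in 2ac and at least 8.01-fold higher in 2abc, Etv5 rose by 0.65 (limma adjusted p = 0.00297) and Sall2 by 0.79 (limma adjusted p = 0.00340). Of 10 ESC markers 0 were higher and 4 lower, among them Tfcp2l1 with -0.55 (limma adjusted p = 0.00258), and their sums were 436 to 467 against 415 to 452 in 2ac and 457 to 467 against 419 to 434 in 2abc. Neural markers were higher for 5 of 7 tested, with control sums of 7.09 to 8.16 against 12.5 to 13.7 in 2ac and 5.58 to 7.55 against 10.1 to 11.4 in 2abc. Of the 9 neural markers on the array, 5 were well above background on all control arrays and 7 on all OHT arrays. Those tested only through the OHT groups, such as Pax6, had their direction tied to the filter. Without cl5 or cl324.9 the 10 calls of the formative list came to 6, and without cl4 or cl324.13 the 4 calls of the ESC list came to 2. The part of these shifts in the changes of Dnmt3a, Dnmt3b and Dnmt3l was not tested.

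Primitive endoderm markers were higher for 1 and lower for 4 of 8 tested, with sums of 36.0 to 36.5 in controls and at most 23.0 after OHT in 2ac, and of 40.0 to 43.6 and at most 34.0 in 2abc. Fibroblast markers, which would mark feeder cells, were higher for 2 and lower for 1 of 8 tested, and 5 of them were called without cl280.4. The lower one, Pdgfrb, was tested only through the control groups, where it is high. Their sums were 2.13 to 3.36 in controls and 2.29 to 5.10 after OHT, and Dcn and Postn were not well above background on any array.

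Over the 12 samples, the gene most like Uhrf1 was the DNA ligase gene Lig1, with a Pearson r of 0.987, and the gene most like Hells was Isyna1, with 0.984. Uhrf1 and Hells correlated with each other at 0.964. The closest genes to Dnmt3a, Dnmt3b and Dnmt3l were Maml3 at 0.980, Pnp2 at 0.961 and Api5 at 0.913, and to Dnmt1 it was Rxrb at 0.945. For Tet1, Tet2, Tet3 and Tdg they were Tulp1 at 0.866, Acd at 0.861, Lce1j at 0.993 and Psme2b at 0.923. These values were the highest of all genes with a symbol, they share the same 12 samples and their group means, and they are descriptions with no test.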

How the data were processed

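RNA of 12 mouse ESC cultures was read on 13 1-colour Agilent arrays. Per the file headers, Agilent Feature Extraction 11.0.1.1 made the deposited intensity values, subtracting the background of each spot, without normalisation between arrays. The deposited table of the whole series holds log2 values that the authors processed with limma, per the submitters' processing notes. Its columns had medians of 10.43 to 10.51 and correlated with the arrays at r of 0.995 to 0.998, its centring is not stated, and it served as an alternative.

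Control spots and spots marked as outliers (184 to 253 of 59305 on an array) were left out and spots of a probe averaged. The log2 intensity minus the array's 75th percentile was used, and 75th percentiles were signals of 409 to 521. The number of arrays limits the precision. Probes well above background on all arrays of a group were kept (30675 of 55681), and the brightest stood for its gene. Symbols came from the probes' accessions through RefSeq on GRCm38.p6, by which 27656 probes had 1 symbol. The array's own design uses mm9, and positions of probes were not used. Promoters of all 10 genes were found in that RefSeq table.

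Groups came from the labels. Each OHT effect was fitted with limma 3.58.1 in R 4.3.3 on the 12 samples together, blocking on ESC line, with 4 residual and 1.96 prior degrees of freedom and Benjamini-Hochberg adjustment. Control and OHT samples of a line are the same line by design. Their deviations from group means correlated at 0.16, 0.46 and 0.50 in 2ac and at 0.03, -0.02 and -0.01 in 2abc. The untreated genotypes were compared with the line as a random block (correlation 0.26). The replicates are ESC lines, grown as 1 culture per condition. A fold was given as a bound, "at least", where a probe was not well above background on any array of 1 group; the bound uses the lowest signal well above background on each array. In simulated data for 22955 genes, 100 had a change of 1 on the log2 scale, 100 a change of 0.5 and the rest none. Of the changes of 1, 43, 39 and 68 were recovered for 2ac, 2abc and the 6 lines. Of those of 0.5, 3, 1 and 35 were. The adjusted p depends on the share of changed genes. In the data 12.3 to 28.7% of genes were called in these comparisons, so the simulated rates need not hold there.

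All 10 genes were named, with all probes, and of other lists at most the 4 called genes with the smallest p in a comparison, the gene most like each of the 10, the targeted genes and the neighbours of Uhrf1. One gene that this rule names is not reported here. The genes and the lists were chosen with earlier results of these data known. Alternatives in background, scaling, filter, probe, block, samples and slide were run.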

Additional observations from a re-analysis of the deposited data

Results flagged for a closer look

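Dnmt3b changed upward after OHT in all 3 lines of 2ac and downward in all 3 lines of 2abc, and its 2abc change minus its 2ac change was -1.15 on the log2 scale. It is listed here because every line of one genotype moved against every line of the other. In the test of the difference itself it had a limma adjusted p of 0.303, and no gene passed. Over the alternatives that could be fitted the difference lay between -1.39 and -1.03, with adjusted p from limma of 0.108 to 0.865.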

How the results depend on the processing

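No called change of the 10 genes changed sign under any of the 21 alternatives. In 2ac the count of 3 called genes became 0 under median scaling, 0 with dim probes kept, 1 with 2ac fitted alone (Dnmt3a, none of the 3), 0 on the slide of cl6 and 2abc, and 0 to 4 with 1 line left out. In 2abc the count of 5 became 3 under median scaling, 2 with dim probes kept, 3 with 2abc fitted alone, 3 on that slide, and 0 to 5 with 1 line left out. Over the 6 lines the count of 4 became 0 on that slide, which holds 4 of the lines, and 3 to 4 with 1 line left out. There Uhrf1, Hells and Dnmt3a had limma adjusted p of 0.0533, 0.0586 and 0.0873, and the calls of these 3 genes over the 6 lines were lost under no other alternative. Without the replicate block, that is, without the pairing of samples by line, the counts were 4, 5 and 3 in 2ac, 2abc and the 6 lines. In the comparison between genotypes and in that of untreated cells 0 of the 10 were called under every alternative that was fitted.

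Lists moved too. The 10 regulators called over the 6 lines became 5 and the 11 S-phase genes 7 under median scaling. With dim probes kept, regulators were 6, readers 4 and S-phase genes 5, and on the slide of cl6 and 2abc each list had 0 to 3. Primitive endoderm calls became 2 and fibroblast calls 1 among probes above background on every array, and 3 and 0 in the authors' deposited table.

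Over all genes, the 2814 calls in 2ac became 909 with dim probes kept, 1597 with 2ac alone, 0 on that slide and 167 to 3434 with a line left out. The 4045 in 2abc became 1534, 932, 932 and 211 to 4720. The 6583 over the 6 lines became 4354, 617 on that slide and 3563 to 6705. The 2 of untreated cells ran from 0 to 7, and to 1179 without cl6. Among called genes 46.9% were higher in 2ac, but 61.7% without cl5, and 48.8% in 2abc, but 59.7% without cl324.13. Median scaling moved the median of all genes between untreated genotypes from -0.04 to 0.26. The cause of these shifts was not tested. Normexp on mean spot signals was not run, since the files hold median signals, which were used for it instead after seeing the files. The 6-line effect and the comparison between genotypes need both genotypes and could not be fitted within 1. Dim probes and 3 lines a genotype limit what could be called.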

Other observations

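Neural genes were higher after OHT over the 6 lines for 5 of 7 tested, where 14% of all genes were. The 5 include genes, such as Pax6, that passed the background filter only in OHT groups, so the count is raised by the filter. The transcription factor gene Neurod1 rose by 2.89 (limma adjusted p = 0.00168) and the tubulin gene Tubb3 by 0.56 (limma adjusted p = 0.00370). Pax6, a regulator of neural and eye development, was at least 3.41-fold higher in 2abc. Of the primitive endoderm genes, the laminin gene Lamb1 fell by 0.72 (limma adjusted p = 0.00252), while Gata6 rose by 0.80 (limma adjusted p = 0.00553). Of the fibroblast genes, Twist1 rose by 0.82 (limma adjusted p = 0.0112), and Pdgfrb was at least 3.42-fold lower in 2ac. Gata6 and Twist1 were each well above background on 2 of 3 control arrays of 2ac and on all other arrays. Of the ESC genes, Tbx3 fell by 0.56 (limma adjusted p = 0.00285). On the 4 lines of 1 slide Lamb1 kept its call, and Neurod1, Tubb3, Gata6, Twist1 and Tbx3 lost theirs.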
